A study of Mus musculus with 2 samples.

Results

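A group of 525 keratin-positive, Epcam-low cells of mouse pancreatic tumors carried the highest combined RNA share of Aqp3, Areg, Il11, Insm1 and Snap25. The cells were chosen by measured values. Base cells were the 10513 of 24282 cells with at least 3000 UMIs (unique molecular identifiers, counts of single RNA molecules), at most 1 Ptprc UMI, under 0.3% fibrillar collagen UMIs (Col1a1, Col1a2 and Col3a1), at least 0.2% Krt8 and Krt18 UMIs, and under 0.04% Epcam UMIs. The members were the top 5% of the base cells of both libraries together by the summed share of the 5 genes, and the other 9988 base cells served for comparison. The high levels of the 5 genes themselves therefore follow from the choice and are given as a description.

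The tumors were orthotopic KPC tumors, grown in the mouse pancreas, and the mice received DMSO as vehicle or EIPA at 10 mg/kg, an amiloride that inhibits sodium-proton exchangers and macropinocytosis. Each of the 2 samples pooled 4 flash-frozen tumors, which were fixed, dissociated and profiled with a probe-based single-cell kit, so a sample has no replicate. A numeric barcode suffix separates 2 libraries, but no label ties the suffix to DMSO or EIPA. Values are therefore given for library 1 and library 2 side by side, ratios put library 2 first for no reason but order, no treatment direction is given, and no test was made.

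The 5 genes belong to different pathways. Aqp3 encodes an aquaporin that passes water and glycerol and is common in basal keratinocytes and other epithelia. Areg encodes amphiregulin, an epidermal growth factor (EGF) receptor ligand shed from the cell surface, and Il11 a cytokine of the interleukin-6 (IL-6) family that signals through gp130. Insm1 encodes a zinc-finger repressor used as a marker of neuroendocrine differentiation, and Snap25 a SNARE protein of regulated vesicle release in neurons and endocrine cells.

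The 250 bases before the annotated starts of Aqp3, Areg and Il11 are shown because 1 of these 3 genes held the most UMIs of the 5 in 466 members, 88.8% (RefSeq, GRCm38.p6, gene strand). Capitals mark, on either strand, a TATA box (TATAAA), a cyclic AMP response element (TGACGTCA) or an AP-1 site (TGANTCA). None of the 3 motifs overlaps another in these windows. The Areg window lies at chr5:91139349-91139598 on the plus strand, before a gene that spans chr5:91139599-91148432, and holds a cyclic AMP response element that begins 61 bases before the start and a TATA box that begins 31 bases before it.
Areg: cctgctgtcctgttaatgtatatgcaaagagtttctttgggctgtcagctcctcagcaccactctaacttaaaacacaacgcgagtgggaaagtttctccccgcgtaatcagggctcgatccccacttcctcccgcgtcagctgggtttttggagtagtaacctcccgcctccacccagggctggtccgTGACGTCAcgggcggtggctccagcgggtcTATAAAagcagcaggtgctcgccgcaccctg
The Aqp3 window lies at chr4:41098184-41098433 on the minus strand, next to a gene that spans chr4:41092722-41098183, and holds a TATA box that begins 29 bases before the start.
Aqp3: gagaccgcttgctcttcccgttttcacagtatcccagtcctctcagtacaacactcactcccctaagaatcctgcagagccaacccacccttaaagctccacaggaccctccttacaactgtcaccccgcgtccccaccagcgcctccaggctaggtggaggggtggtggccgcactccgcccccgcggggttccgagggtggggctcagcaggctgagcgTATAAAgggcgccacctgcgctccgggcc
Il11 (gene at chr7:4772373-4782859, minus strand) has more than 1 start in RefSeq, and the window at chr7:4778142-4778391 holds an AP-1 site that begins 98 bases before the start, while the other window, at chr7:4782858-4783107, holds none of the 3 motifs and is not printed.
Il11: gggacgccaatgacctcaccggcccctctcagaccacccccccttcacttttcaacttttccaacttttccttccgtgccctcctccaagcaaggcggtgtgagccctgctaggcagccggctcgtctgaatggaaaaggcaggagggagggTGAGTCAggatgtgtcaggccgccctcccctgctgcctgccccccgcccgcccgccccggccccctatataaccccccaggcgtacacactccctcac
Of 32851 promoter windows of the same length, 1.55% hold the cyclic AMP response element, 6.75% the AP-1 site and 12.4% the TATA box on either strand. Insm1 (chr2:146221921-146225020, plus strand) and Snap25 (chr2:136713453-136782428, plus strand) are given by position.

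Library 1 held 182 members, 3.49% of its 5213 base cells (95% exact Clopper-Pearson interval 3.01 to 4.03). Library 2 held 343 members, 6.47% of 5300 (5.82 to 7.17), a ratio of 1.85. Intervals here and below cover counting error only. The lowest member had 0.116906% of its UMIs in the 5 genes and the highest cell outside 0.116879%, with no gap between them, as the plot of the 5-gene share shows. The median share was 0.161% in members and 0.0158% in other base cells. A median member had 20 UMIs of the 5 genes in library 1 and 30 in library 2, and the lowest had 4 and 5.

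**Figure D1:**
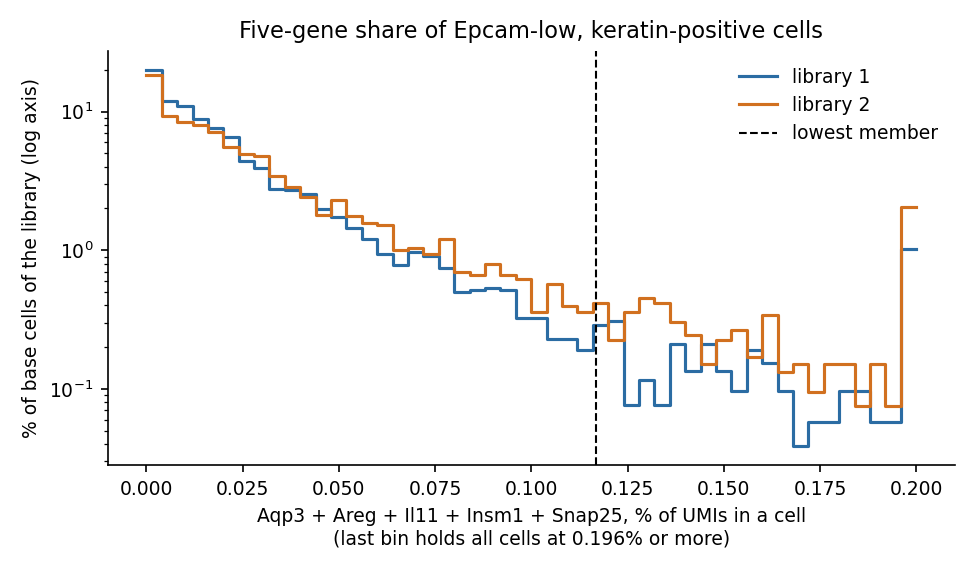
Share of UMIs in the 5 genes per base cell (x axis, %) against the percentage of base cells of each library per bin (log axis). Cells become few and the bins uneven around the lowest member at 0.116906% (dashed line), with no gap there, and library 2 holds more cells beyond it, 6.47% against 3.49%.

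Depth moved with membership in library 1. The median member there had 11652 UMIs and 4613 genes detected against 17610 and 5801 in other base cells. In library 2 the medians were 17871 UMIs and 5662 genes against 17805 and 5823. Across deciles of depth, the member share in library 1 was 5.52% in the shallowest and 0 of 515 cells in the deepest, which allows up to 0.583%, while library 2 stayed between 5.14% and 7.78%. With every base cell thinned to 3000 UMIs before the choice, the ratio of member shares was 1.29 instead of 1.85. The median mitochondrial share was 0.373% in members and 0.374% in other base cells of library 1, and 0.434% and 0.494% in library 2. The libraries shared 225 barcodes, and 10 members carried such a barcode, but no barcode was a member in both.

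Areg stood, in members, at 1212 CPM (UMIs summed over the cells of a library and scaled to counts per 1e+06) in library 1 and 750 in library 2, against 145 and 149 in other base cells. Levels are compared within a gene, since probes of different genes may capture unequally. Aqp3 stood at 387 and 491 CPM in members and 23.2 and 40.4 in other base cells. Snap25 was nearly equal between libraries, at 203 and 190 CPM against 30.01 and 28.8. Areg and Aqp3 differed between libraries among members, with log2 ratios of library 2 over library 1 of -0.69 and 0.34. The libraries differed most in the remaining pair. Il11 stood at 43.4 CPM in members of library 1 (95% exact Poisson interval 35.5 to 52.6) and 199.6 in members of library 2 (189 to 210), and Insm1 at 16.3 (11.6 to 22.3) and 174 (164 to 184). Both were also higher in the other base cells of library 2, at 14.0 against 4.96 CPM for Il11 and 33.2 against 6.82 for Insm1.

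An Areg UMI was found in 95.1% of members of library 1 and 95.3% of members of library 2. A Snap25 UMI was found in 75.3% and 74.9%, and an Aqp3 UMI in 55.5% and 78.4%. Il11 was seen in 16.5% and 37.3% of members and Insm1 in 8.24% and 46.9%. Cells with at least 5 Ptprc UMIs and under 0.2% keratin, which should lack most of these genes, gave the background: of 81 such cells of library 1 (median 12755 UMIs) and 90 of library 2 (median 11110.5), 44.4% and 44.4% had an Areg UMI, 17.3% and 22.2% Aqp3, 17.3% and 15.6% Snap25, 4.94% and 7.78% Il11, and 6.17% and 14.4% Insm1. The Insm1 share in members of library 1 lay close to this background and to the share in other base cells of that library. Some immune cells are known to make Areg, so its value there is an upper guide.

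Thinned to 3000 UMIs, 45.1% of members of library 1 and 43.4% of library 2 had UMIs of 2 of the 5 genes, and 1.10% and 5.25% had 4; 0 of 525 had 5, which allows up to 0.571%. Each member then holds few UMIs of the genes, so these shares describe UMIs found and not how many genes a cell expresses. Areg held most of the 5-gene UMIs in 124 members (68.1%) of library 1 and 154 (44.9%) of library 2. Aqp3 led in 36 (19.8%) and 109 (31.8%), and Snap25 in 18 (9.89%) and 17 (4.96%). Il11 led in 3 and 40 members, and Insm1 in 1 and 23. In the 40 Il11-led cells of library 2, Il11 reached 1007 CPM and Insm1 215, while Aqp3 stood at 34.5.

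To see how the genes ran together, the top 5% of base cells were taken by 4 of the genes and the left-out gene was read. The genes were chosen with earlier results of these data known, so this is a description and not an independent check. Snap25 stood at 139 CPM (124 to 155) in the cells chosen by the other 4 genes and 31.5 in the rest of library 1, and at 140 (132 to 149) and 31.7 in library 2, a log2 ratio of 2.11 in both. Aqp3 stood at 195 against 26.8 CPM and 223 against 57.8 (log2 2.82 and 1.93), and Areg at 557 against 162 and 441 against 167 (1.77 and 1.40). Il11 stood at 23.2 against 5.37 CPM in library 1 and 47.6 against 24.3 in library 2 (1.93 and 0.94). After thinning to 3000 UMIs, Il11 in library 1 rested on 8 UMIs, at 12.4 CPM (5.35 to 24.4) against 5.74 (4.59 to 7.08), which overlap. Insm1 was higher in the chosen cells of library 2, at 84.4 against 39.4 CPM (1.08). In library 1 its 9.88 CPM (6.46 to 14.5) could not be told from 6.96 (6.47 to 7.48), and after thinning 2 UMIs were left in the chosen cells. Log2 ratios throughout have 1 CPM added to both levels.

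**Figure D2:**
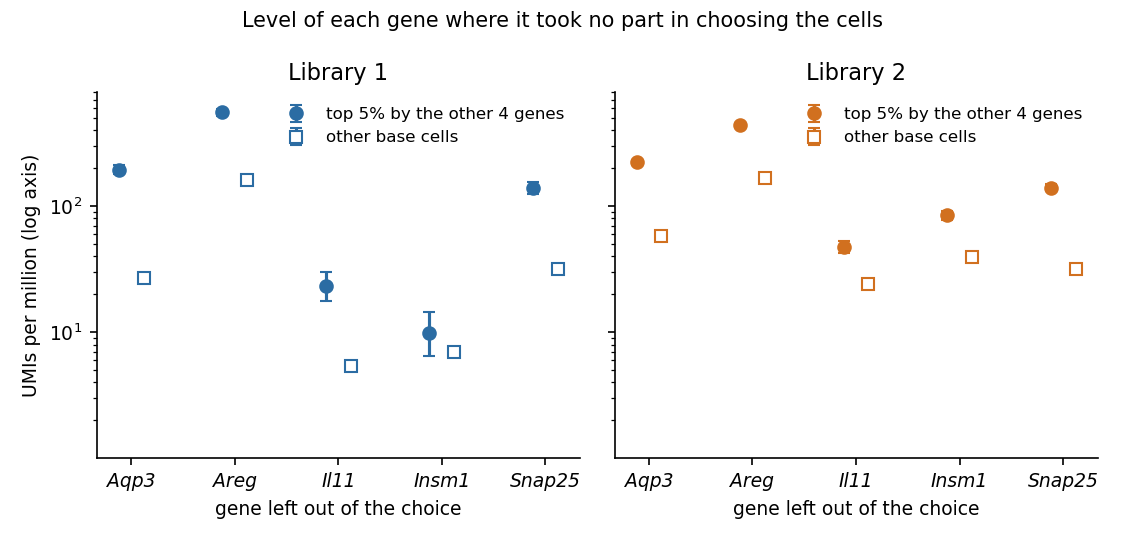
Level of each gene (CPM, log axis) in the top 5% of base cells chosen by the other 4 genes (filled) and in the other base cells (open), with exact Poisson 95% intervals. Aqp3, Areg, Il11 and Snap25 were higher in the chosen cells of both libraries; Insm1 had overlapping intervals in library 1, as did Il11 there after thinning to 3000 UMIs.

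Across base cells, the log levels of Areg and Snap25 correlated at a Pearson r of 0.256 in library 1 (5213 cells) and 0.260 in library 2 (5300 cells), and those of Aqp3 and Areg at 0.195 and 0.257. Il11 and Insm1 correlated at 0.0097 in library 1 and 0.267 in library 2. Aqp3 correlated with Il11 at 0.042 in both libraries and with Insm1 at -0.024 and 0.093. Areg correlated with Il11 at 0.055 and 0.101 and with Insm1 at 0.029 and 0.134. Snap25 correlated with Aqp3 at 0.163 and 0.232, with Il11 at 0.088 and 0.174, and with Insm1 at 0.047 and 0.209. The cells share a library and vary widely in depth, and at such sparse counts these values are a description.

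Outside the 5 genes, 65 of 8133 measured genes (0.799%) were at least 2-fold higher in members in both libraries and 169 (2.08%) at least 2-fold lower. A gene counted as measured with at least 20 CPM in members, or in other base cells, of both libraries. The median log2 ratio of all measured genes was -0.04 in each library. The set of lower genes outnumbered the higher ones, and the plot of both libraries shows the named genes at the 2 ends of a cloud centred near 0.

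**Figure D3:**
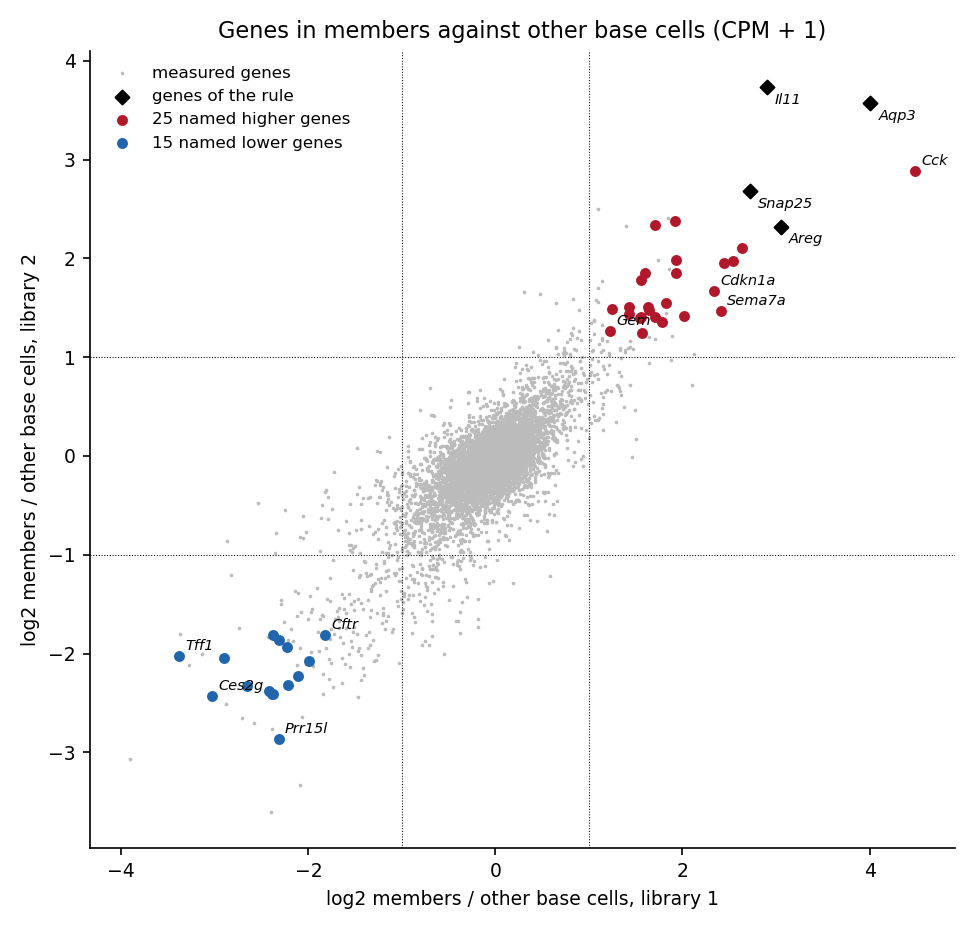
Log2 ratio of members over other base cells in library 1 (x axis) and library 2 (y axis) for 8133 measured genes outside the rule (grey) and the measured genes of the rule (black); dotted lines mark 2-fold. The 25 named higher genes (red) lie at 1.22 or more and the 15 named lower genes (blue) at -1.81 or less in both libraries.

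Cck, the gut and brain peptide cholecystokinin, had the highest ratio, at 66.0 CPM in members against 1.98 in library 1 and 76.5 against 9.50 in library 2. It rested on few cells: 9.89% and 17.2% of members had a Cck UMI, and 3 cells gave 78.5% of its member UMIs in library 1 and 31.4% in library 2. Nptx1, a secreted neuronal pentraxin, stood at 88.6 against 13.4 CPM and 61.0 against 13.4. Tnc, the matrix glycoprotein tenascin-C of wounds and tumor stroma, stood at 187 against 31.3 and 190 against 47.3, with 37.5% of its member UMIs in library 1 from 3 cells. Broader signals came from Cdkn1a and Jag1. Cdkn1a, which encodes the cyclin-dependent kinase inhibitor p21, had UMIs in 86.8% and 83.7% of members against 51.9% and 54.1% of other base cells, at 447 against 87.6 CPM and 325 against 102.

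Several of the 25 named higher genes encode ligands or matrix proteins. Bmp2, a bone morphogenetic protein, stood at 169 CPM in members against 43.6 in other base cells of library 1 and at 207 against 56.6 in library 2. Jag1, a Notch ligand, stood at 1123 against 317 and 1157 against 393. Igfbp3, which binds insulin-like growth factors, stood at 1915 against 710 and 1630 against 571, and Acan, the proteoglycan aggrecan, at 577 against 195 and 801 against 337. Sema7a, a membrane-anchored semaphorin, had log2 ratios of 2.41 and 1.47, and Qrfp, a neuropeptide precursor, 1.25 and 1.49.

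Signaling, channel and metabolic genes made up the rest. Adra2a, an adrenergic receptor, and Gfra2, a co-receptor for the neurotrophic factor neurturin, had log2 ratios of 1.93 and 1.98, and of 1.43 and 1.43. Kcnh2, a potassium channel, had 1.56 and 1.78, and Slc20a1, a phosphate transporter, 1.78 and 1.36. Ptgs2, the inducible cyclooxygenase that starts prostaglandin synthesis, stood at 179 against 60.9 CPM and 105 against 39.1. The transcription factors Egr3, an immediate early gene, and Mxd1, an antagonist of Myc, had ratios of 2.01 and 1.42, and of 1.64 and 1.47. Sh2d5, Lbh, Ggct, Tmem95, Kctd11 and Gem had ratios between 1.22 and 2.44.

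The 15 named lower genes included gastric and secretory epithelial genes. Tff1, a trefoil peptide of the stomach mucosa, stood at 58.1 CPM in members and 615 in other base cells of library 1, and at 91.9 and 378 in library 2. Tff2 stood at 47.6 against 305 and 69.1 against 352. Muc5b, a gel-forming mucin, stood at 58.5 against 307 CPM and 28.8 against 104, and Gcnt3, a mucin-type glycosyltransferase, at 110 against 480 and 73.8 against 349. Cftr, the chloride channel of ducts, had log2 ratios of -1.83 and -1.82, and Tmprss2, a membrane serine protease of epithelia, -2.39 and -2.41. Ces2g, a carboxylesterase, and Gsta4, a glutathione transferase, had -3.03 and -2.43, and -2.42 and -2.38. Ly6a stood at 58.5 against 308 CPM and 58.0 against 312, nearly the same in both libraries. Prr15l, Atp1b1, Lgals2, Gjb1, Vcam1 and Vsig1 had ratios between -2.91 and -1.86.

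Genes whose log level ran most closely with that of the 5 genes over base cells were, in order, Dusp5, Slc20a1, Jag1, Cdkn1a, Inhba, Igfbp3, Btc, Pdgfa, Smox, Sh2d5, Ndst3 and Acan. Their Pearson r lay between 0.30 and 0.43 in library 1 and between 0.31 and 0.47 in library 2. Dusp5, a nuclear phosphatase that switches off ERK, led with 0.43 and 0.46 and stood at 1359 against 501 CPM and 1381 against 642. Inhba, the subunit of activin A, stood at 1235 against 532 and 789 against 388. Pdgfa, a platelet-derived growth factor, stood at 872 against 395 and 1339 against 594. Depth varied widely between the cells of a library and moved with membership in library 1, so these values are a description.

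Gene lists are described by their median log2 ratio and by the genes at least 1.5-fold apart in the same direction in both libraries, beside the 2.39% of all measured genes that were as much higher and 5.26% that were as much lower. The plot of list medians shows that 4 of 28 lists had medians at least 1.5-fold lower in both libraries and none at least 1.5-fold higher. Differences within a list were larger than its median in several cases.

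**Figure D4:**
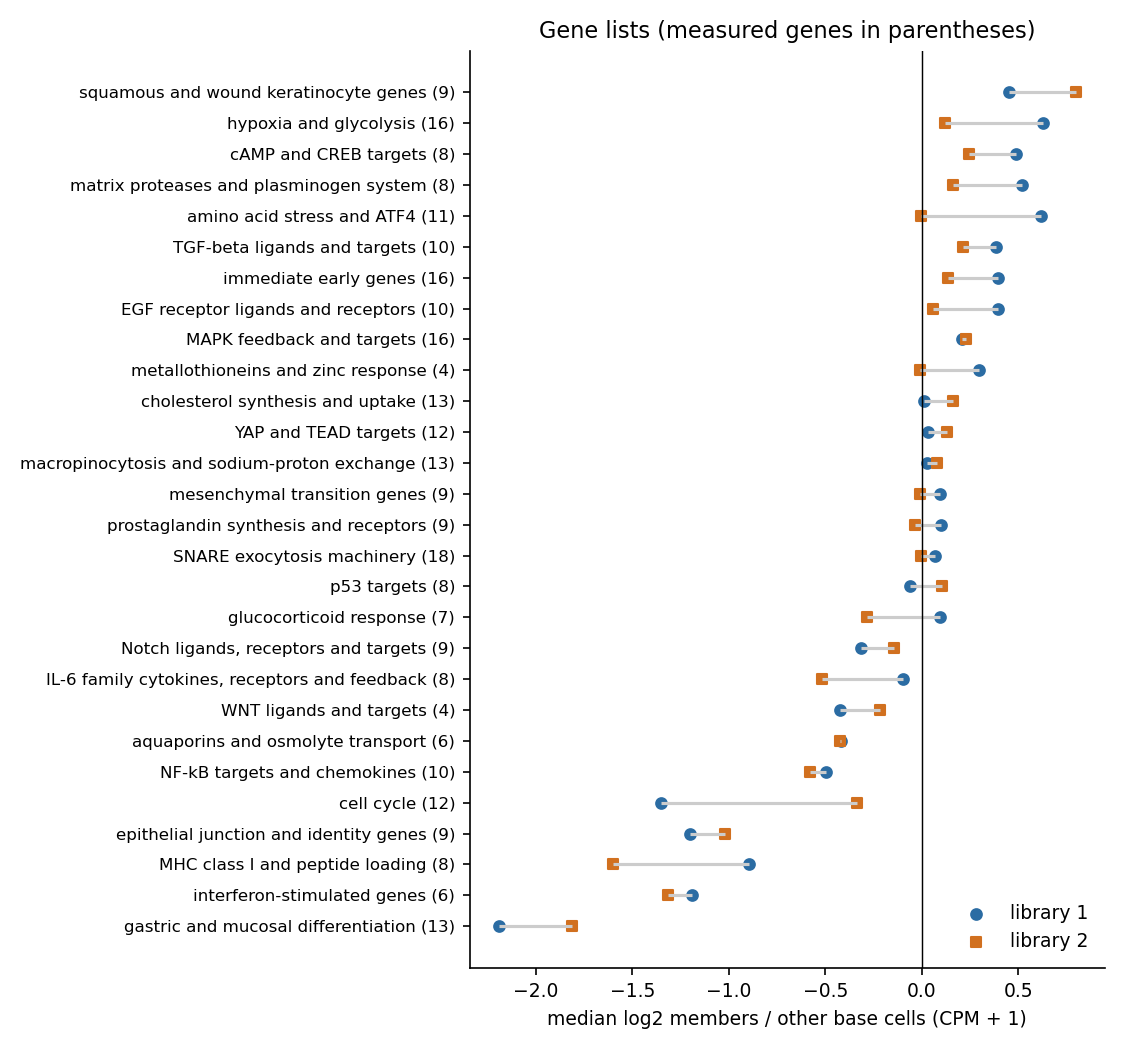
Median log2 ratio of members over other base cells for each gene list in library 1 (circles) and library 2 (squares), with the number of measured genes in parentheses. The gastric list lies lowest at -2.19 and -1.81; most signaling lists lie close to 0.

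EGF receptor ligands were high beyond Areg. Among 10 measured ligands, receptors and regulators, 3 ligands were at least 1.5-fold higher and 2 receptors lower. Ereg (epiregulin) stood at 123 CPM against 32.5 in library 1 and 64.5 against 27.2 in library 2, Hbegf at 799 against 413 and 643 against 364, and Btc (betacellulin) at 478 against 214 and 397 against 215. Tgfa had ratios of 0.84 and 0.48. The receptor genes Erbb2 and Erbb3 had ratios of -0.83 and -0.65, and of -1.43 and -1.49, while Egfr stood at 130 against 98.3 and 73.5 against 80.6. The list median was 0.39 and 0.06.

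Il11 had company in its own family. Lif, another gp130 cytokine, stood at 323 CPM against 103 in library 1 and 245 against 106 in library 2. No gene of the 8 measured was at least 1.5-fold lower in both libraries. The receptor Osmr stood at 62.3 against 76.9 CPM and 25.5 against 70.3, and Il6st, which encodes gp130, at 81.9 against 87.0 and 47.2 against 74.5. The list median was -0.10 and -0.52.

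The neuroendocrine list had little RNA around Insm1 and Snap25. Of 25 transcription factors and granule proteins, 18 had no UMI in members of library 1 and 9 none in members of library 2, where 3 UMIs correspond to 1.25 and 0.426 CPM. Neurod1 and Pax6, factors of neuroendocrine and islet cells, had no UMI in members of either library. In other base cells Neurod1 stood at 0.0186 and 0.0470 CPM and Pax6 at 0.0372 and 0.0470, under what 3 UMIs correspond to in members. The share of all genes without a UMI in members was not counted. These zeros therefore do not set members apart from other base cells. Chga and Syp, the defining chromogranin and synaptophysin markers, had no UMI in members of library 1 and 0.142 CPM each in library 2. Only Cpe and Ncam1 were measured: Cpe, a peptide-processing enzyme, stood at 899 against 517 CPM and 866 against 423, and Ncam1, a neural cell adhesion molecule, at 160 against 119 and 92.1 against 110. Scg2, a secretogranin below the level that counted as measured, stood at 15.04 against 5.03 and 65.4 against 6.82. Of 18 measured SNARE and exocytosis genes, Syt12 and Unc13a were higher (log2 0.74 and 1.06, and 1.32 and 0.69) and Rab3d and Rab27b lower (-0.82 and -0.59, and -0.76 and -0.64), with a list median of 0.07 and -0.0046. Islet markers together stood at 144 CPM against 215 and 113 against 203.

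Of 6 measured genes of other aquaporins and osmolyte transport, none was at least 1.5-fold higher in both libraries. Aqp1, a water channel, stood at 160 CPM in members against 285 in library 1 and 151 against 298 in library 2. Akr1b3, the aldose reductase that makes sorbitol, had ratios of -1.02 and -0.72.

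Among 16 measured genes of MAPK feedback and targets, Dusp4, Dusp5 and Spry2 were at least 1.5-fold higher and Spry1 lower (log2 -1.52 and -1.47), with a median of 0.21 and 0.23. Dusp4 stood at 607 against 316 CPM and 533 against 298. Of 16 immediate early genes, Fosb, Egr3, Ier3 and Nr4a1 were at least 1.5-fold higher in both libraries and none as much lower. Fos itself stood at 102 against 131 CPM and 58.4 against 71.5. Among 8 cyclic AMP targets, Nr4a1 and Fosb were at least 1.5-fold higher in both libraries. The salt-inducible kinase Sik1 had ratios of 0.85 and 0.29. Ptgs2 was accompanied by Ptges, the prostaglandin E synthase, at 38.9 against 13.9 CPM and 32.3 against 14.6. The prostaglandin transporter Slco2a1 had ratios of 0.82 and 0.89, and the receptor Ptger4 -1.78 and -2.26.

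The median ratio of hypoxia and glycolysis genes was 0.63 in library 1 and 0.12 in library 2, and Vegfa, Slc2a1, Ankrd37 and Adm of 16 measured genes were at least 1.5-fold higher in both. Vegfa stood at 2391 CPM against 768 and 1318 against 685. Car9, a carbonic anhydrase induced by low oxygen, stood at 288 against 243 and 147 against 243. The difference between the libraries was not tested.

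Squamous and wound genes had a median of 0.45 and 0.80, with 3 of 9 measured at least 1.5-fold higher, Ivl and Lama3 among them, and Dsc2, a desmosomal cadherin, lower. Ivl (involucrin) stood at 883 against 469 CPM and 478 against 211. Among 8 matrix proteases and plasminogen genes, Mmp10 stood at 49.7 against 23.7 and 74.0 against 34.7. Of 9 mesenchymal genes only Itga5, the fibronectin receptor subunit, passed 1.5-fold in both libraries, at 400 against 160 and 352 against 195. Vim stood at 3664 against 4346 and 4489 against 4736.

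Genes of gastric differentiation were lower. Of 13 measured, 9 were at least 1.5-fold lower in both libraries and none higher, with a median of -2.19 and -1.81. Gkn1 and Gkn2, which encode gastrokines, stood at 11.7 against 57.0 CPM and 5.25 against 30.9, and at 3.76 against 24.1 and 1.99 against 35.2. Gata6, a factor of the classical pancreatic cancer program, had ratios of -0.20 and -0.17. Of 9 epithelial junction and identity genes, 7 were lower, including Cdh1 (E-cadherin) at 342 against 549 CPM and 167 against 338, and Krt7 at 177 against 490 and 114 against 440. Epcam was at 33.4 against 58.6 and 22.4 against 45.9, within a base already limited to low Epcam. Krt8 and Krt18, which the base rule required, had ratios of -0.43 and -0.22, and of -0.09 and -0.03.

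Antigen presentation genes were also lower. Of 8 measured MHC class I and peptide loading genes, 7 were at least 1.5-fold lower, with a median of -0.89 and -1.60. H2-K1 stood at 199 CPM against 395 in library 1 and 293 against 858 in library 2, so that the other base cells of library 2 had the highest level. B2m stood at 58.1 against 116 and 58.0 against 156. Of 6 interferon-stimulated genes, 5 were lower, including Bst2 at 22.1 against 69.1 and 23.3 against 80.4. Of 10 NF-kB targets, Cxcl5 was lower (log2 -1.76 and -1.75), as was Icam1 at 11.3 against 46.9 CPM and 19.1 against 57.9, and Csf2, a myeloid growth factor, was higher (1.44 and 0.72).

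Cell cycle genes had a median of -1.35 in library 1 and -0.34 in library 2, with Mki67, Ccnb2 and Aurka of 12 measured at least 1.5-fold lower in both. Mki67 stood at 10.9 against 34.1 CPM and 32.6 against 61.6. Cdkn1a was the only p53 target of 8 measured that was at least 1.5-fold higher in both libraries. Mdm2 had ratios of 0.31 and 0.27 and Phlda3 -0.87 and -0.78.

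Marker sums of other cell types did not all lie level. Macrophage markers summed to 385 CPM in members against 437 in other base cells of library 1 and 513 against 487 in library 2, and endothelial markers to 21.7 against 36.1 and 43.8 against 32.4. T and NK cell markers summed to 5.85 against 7.36 and 13.2 against 14.9, fibroblast markers to 178 against 120 and 148 against 105, and acinar markers to 12.5 against 22.7 and 14.2 against 21.9. The fibroblast sum was thus higher in members of both libraries, with 1 of the 8 markers at no UMI in members of library 1. The dendritic cell sum was higher too, at 17.96 against 12.8 and 25.4 against 20.5. Single genes made up most of both sums. Col5a1 stood at 157 against 102 and 136 against 90.5 CPM, and Zbtb46 at 15.04 against 10.2 and 20.6 against 13.4. The sums therefore do not show that the other markers of either type were higher. In the macrophage sum, Mrc1 stood at 168 against 113 and 314 against 209, while the median log2 ratio of 3 measured macrophage markers was -0.23 and -0.44. Pericyte markers summed to 8.77 against 12.3 in library 1 and to 33.6 against 16.2 in library 2, where Rgs5 stood at 27.1 against 8.46. The part of these cells in the result was not tested. Without the 3 clusters led by macrophage, T-cell and endothelial genes, 65 genes were at least 2-fold higher and 171 lower. These clusters held few members, with 3, 0 and 1 in library 1 and 5, 1 and 3 in library 2. Their removal could therefore change little, and none was led by fibroblast or pericyte markers.

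Members lay near one another in genes that took no part in the choice. Among the 15 nearest neighbors of a member, found in 2000 variable genes without the 5, 23.8% were members in library 1 and 32.0% in library 2, against 2.28% and 3.71% among the neighbors of other base cells. Of 20 clusters built on the same genes, 3 held most members. Cluster 1, led by Chac1, Trib3, Mthfd2 and Asns, genes of the ATF4 amino acid response, held 106 members (58.2%) of library 1 and 50 (14.6%) of library 2. Cluster 8, led by Cited1, Adm and Hspa1a, held 31 (17.0%) and 49 (14.3%). Cluster 9, led by Scg2, Slc14a1 and Kcnh2 among others, held 7 (3.85%) and 135 (39.4%). Members made up 10.9% of the cells of cluster 1 in library 1 and 11.3% in library 2. They made up 9.51% and 20.2% of cluster 8, and 26.9% and 31.5% of cluster 9. Cluster 9 had 26 cells in library 1 and 428 in library 2. Cluster 1 (973 and 444 cells), cluster 3 (57 and 934) and cluster 13 (287 and 0) were also uneven. The reason was not tested, and the clusters are left without names.

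**Figure D5:**
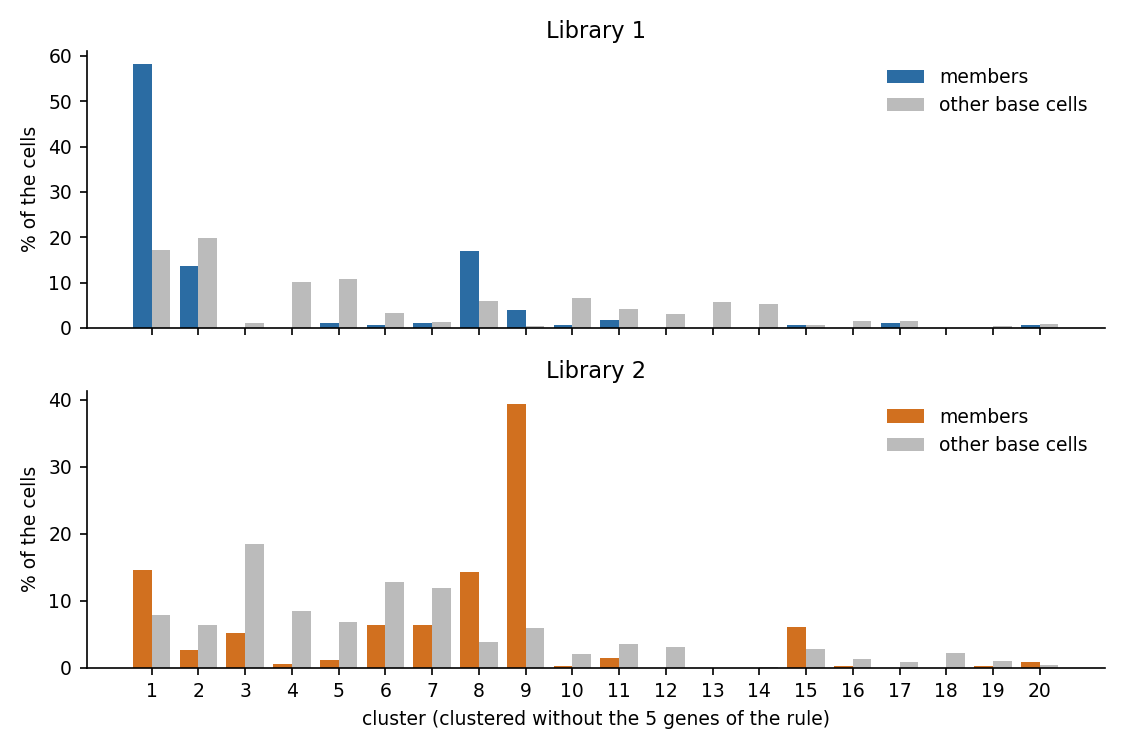
Percentage of members (colored bars) and of other base cells (grey bars) in each of 20 clusters, by library. Cluster 1 holds 58.2% of members of library 1, and cluster 9 holds 39.4% of members of library 2. Cluster sizes differ too, with 973 and 444 cells in cluster 1 and 26 and 428 in cluster 9 of libraries 1 and 2.

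The 5 genes differed between these clusters. Members of cluster 9 in library 2 had 224 CPM of Il11 and 242 of Insm1, against 11.5 and 47.3 in members of cluster 1 and 28.9 and 19.7 in members of cluster 8. Aqp3 was highest in members of cluster 8, at 571 CPM in library 1 and 1169 in library 2. In the base without cluster 9, the ratio of member shares between libraries was 1.265 instead of 1.85. Members of cluster 9 apart, 62 genes were at least 2-fold higher and 159 lower.

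Fewer genes were 2-fold apart against base cells of the same cluster makeup. With other base cells weighted to the clusters of members, an alternative chosen after the data were seen, 13 genes in place of 65 were at least 2-fold higher and 7 in place of 169 lower, and the gastric median came to -0.39 and -0.42. Against the rest of the same cluster, the ratios of single genes differed. Sema7a had ratios of 1.65 and 1.29 within cluster 1, 1.89 and 1.08 within cluster 8, and 1.35 within cluster 9 of library 2. Ptgs2 had -1.74 within cluster 8 of library 2, and Tff1 1.81 within cluster 1 of library 2. The genes were named from these same members and the clusters were built on genes that include them, so the values are a description.

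With members chosen by Insm1 and Snap25 alone, 13 genes were at least 2-fold higher and 124 lower. By leading gene, Cdkn1a stood at 444 CPM in Aqp3-led members of library 2, 380 in Areg-led, 66.9 in Insm1-led and 118 in Il11-led members.

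Members overlapped unequally with other high cells of the base, each the top 5% by another gene sum. Cells high in hypoxia genes made up 23.6% of members of library 1 and 12.2% of library 2, against 4.37% and 4.44% of other base cells. Cells high in Ivl and Mmp3 made up 18.1% and 6.71% against 7.53% and 1.82%. Cells high in metallothioneins made up 4.95% and 8.45% against 2.70% and 7.08%, with overlapping intervals in both libraries. Cells high in gel-forming mucins made up 0 of 182 members, which allows up to 1.65%, and 0.583% in library 2, against 7.55% and 2.88%. Cells high in complement and chemokine genes made up 0.549% and 0.292% against 3.52% and 6.98%. Cells high in cell cycle genes made up 0 of 182 and 4.08% of members against 2.72% and 7.54%.

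The members of the libraries differed from each other. Of 8174 genes with at least 20 CPM in members of 1 library, 162 (1.98%) were at least 2-fold higher in library 2 with Poisson intervals apart and 109 (1.33%) lower. Of these, 35 of the 162 and 2 of the 109 were also at least 2-fold apart the same way among other base cells. No share of all genes as far apart among other base cells was counted, so these counts do not show differences particular to members. Higher in members of library 2 were the replication genes Hist1h1b, at 119 CPM against 11.7, and Top2a, at 78.2 against 12.1. Other base cells differed less, at 151 against 43.5 for Hist1h1b and 111 against 46.5 for Top2a. Slc14a1, a urea transporter, stood at 101 against 23.0 in members, Scg2 at 65.4 against 15.04, and Thbd (thrombomodulin) at 97.7 against 24.2, with 44.6% of Thbd UMIs in library 2 from 3 cells. The library 1 values rest on few UMIs: 28 for Hist1h1b, 29 for Top2a and 36 for Scg2, of which 3 cells gave 57.1%, 55.2% and 47.2%. Ube2c, Hist1h2ap and Crisp1 had log2 ratios between 2.23 and 2.35.

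Lower in members of library 2 were Mmp3, the matrix protease stromelysin, at 19.9 CPM against 125, and Rasgrf1, an exchange factor for Ras, at 16.9 against 73.5. For Mmp3 the direction against other base cells differed, with 0.59 in library 1 and -1.22 in library 2, and 3 cells gave 41.3% of its member UMIs in library 1. The epithelial factor Ehf stood at 25.7 against 86.5 and extracellular superoxide dismutase Sod3 at 37.2 against 122. The phosphatase Dusp1 stood at 140 against 398, and Ace, angiotensin-converting enzyme, at 119 against 365. Gda and Atp11a had log2 ratios of -1.47 and -1.44. All 8 genes were also lower in library 2 among other base cells, by less, with log2 ratios from -0.97 (Rasgrf1) to -0.21 (Gda).

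The promoter windows of the higher and lower genes were read with the same 3 motifs. Windows were matched for 50 of the 65 higher genes, 114 of the 169 lower genes and 6514 of the 8133 measured genes. An AP-1 site was found for 5 higher genes (10%), 15 lower genes (13.2%) and 5.56% of measured genes. A TATA box was found for 8 (16%), 18 (15.8%) and 7.35%, and a cyclic AMP response element for 1 (2%), 2 (1.75%) and 2.96%. A match is a run of letters and no evidence of binding.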

How the data were processed

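Both samples were deposited as 1 table of unnormalized UMI counts. The authors used Cell Ranger 8.0.0 and mm10 as the build, as the submitters' processing notes and the file headers give it; filters and cell calling are not given in the sources used here. The table has 19059 genes, with 203459556 UMIs in 12337 cells of library 1 and 185474400 in 11945 of library 2. The members and lists were chosen with earlier results of these data known. UMIs were summed per group and library, scaled to CPM and compared as log2 ratios with 1 CPM added. Doublets were kept; removal of the 10% of cells with the highest Scrublet scores (scanpy 1.11.5) was an alternative. Named genes are, at 50 CPM or more in both libraries, the 25 with the highest smaller ratio and the 15 with the lowest larger ratio, 12 by correlation, and 8 higher and 8 lower between libraries with Poisson intervals apart. List genes given as examples, the Ptprc cells and the clusters singled out were chosen after their values were seen. Of the list genes, Ahsp, Il11ra1, Gapdh and Mmp1a were not matched to the probe set. Clusters are Leiden clusters (leidenalg 0.10.2, igraph 0.11.9) on 30 principal components. Values of some genes of the rule-named set and the lists are not reported here. The call rules were tested on simulated Poisson counts without spread between cells. That test does not cover genes whose UMIs came from few cells. With 1 library per treatment, no p-value is given. TMM factors came from edgeR 4.0.16 in R 4.3.3, and other steps ran in Python 3.11.15 with scipy 1.17.1, pandas 2.3.3 and numpy 2.4.6. Alternatives changed the share taken, depth, doublets, the genes of the choice, scaling, the added CPM and the filter on low genes.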

Additional observations from a re-analysis of the deposited data

How the results depend on the processing

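All 80 values of the 40 genes named as higher or lower in members kept their sign in up to 18 alternatives. The genes were named for extreme ratios in these same cells, so a kept sign is weak evidence. Sizes moved more: in library 2 the lowest log2 ratio was 0.20 for Cck (main 2.88) and 0.36 for Cdkn1a (main 1.67). Over all named gene values, including those between libraries, 591 moved beyond counting error and 1057 did not. Counts of genes at least 2-fold higher (65) came to 42 in the top 10% of base cells, 42 with cells thinned to 3000 UMIs, 41 with 10 CPM added, 13 with members by Insm1 and Snap25 and 13 with other base cells weighted to the clusters of members. Counts of lower genes (169) came to 105 thinned, 109 with 10 CPM added, 392 with no filter on low genes and 7 weighted to clusters. The 4 lists with lower medians became 0 weighted to clusters, and 1 list had a higher median in the top 2.5% and with other base cells weighted to the depth of members. The ratio of member shares (1.85) was 1.29 thinned, 2.46 by Insm1 and Snap25 and 1.265 without cluster 9.

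Left-out genes kept their direction except Insm1 in library 1, at -1.02 when thinned. In the top 2.5%, libraries 1 and 2 gave 2.96 and 2.30 for Aqp3, 2.24 and 1.62 for Areg and 1.15 and 0.73 for Il11, with 0.77 for Insm1 and 2.32 for Snap25 in library 2. In the top 10% they gave 2.07 and 2.05 for Aqp3, 1.37 and 1.17 for Areg and 1.25 and 1.55 for Il11, with 1.43 for Insm1 in library 2 and 1.68 for Snap25 in library 1. Thinned cells gave 2.02 and 1.54 for Aqp3, 1.38 and 1.34 for Areg and 1.80 and 1.84 for Snap25, with 0.99 for Il11 in library 1. With the highest doublet scores removed Areg was 1.88 and 1.47.

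Genes higher in library 2 among members (162) came to 94 thinned, 99 by Aqp3, Areg and Il11, 88 with 10 CPM added and 336 with no filter, and lower genes (109) to 164 in the top 2.5%, 43 with 10 CPM added and 200 with no filter. The cause of each change was not tested. The clustering alternatives were chosen after seeing the data. No paired analysis was possible because each treatment has 1 library and no label ties a library to a treatment. Library 1 limits Il11 and Insm1, with 104 and 39 UMIs in members.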

Other observations

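Several programs were level between members and other base cells. None of 13 measured cholesterol genes was 1.5-fold apart in the same direction in both libraries, with a median log2 ratio of 0.01 and 0.16, nor any of 12 YAP and TEAD targets (0.03 and 0.13) or of 4 metallothionein and zinc genes (0.30 and -0.01). Of 13 genes of macropinocytosis and sodium-proton exchange, the process and the pumps that EIPA inhibits, Slc9a2 alone was at least 1.5-fold higher in both libraries. It stood at 73.1 CPM against 32.6 in library 1 and 156 against 44.8 in library 2. The median of this list was 0.02 and 0.08.

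Amino acid stress and ATF4 genes had a median of 0.62 in library 1 and -0.0028 in library 2; of 11 measured, Slc7a11, the cystine transporter, was at least 1.5-fold lower in both, at 53.1 against 90.1 CPM and 31.2 against 57.9. Trib3 stood at 79.8 against 41.2 in library 1 and 33.5 against 33.5 in library 2. Of 10 transforming growth factor beta genes, Ltbp2 and Inhba were higher in both libraries, and of 9 Notch genes Dll4, at 320 against 143 and 319 against 211, and Jag1. Of 4 measured WNT genes Wnt7b was higher (0.72 and 1.04) and Wnt5a lower, with -1.37 in library 2. Of 7 glucocorticoid response genes Cebpd was lower, at 149 against 250 CPM and 68.9 against 160.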
